A study of Mus musculus with 15 samples.

Results

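Adipokines are proteins that fat tissue secretes, and batokines are those secreted by brown fat. The genes described here are 10 of them: Adipoq, Lep, Retn, Cfd, Nrg4, Rbp4, Agt, Nampt, Cxcl14 and Metrnl. They were chosen by name, and 9 of the 10 had a probe set (a group of array probes read as 1 value) assigned to that gene symbol alone, among 18194 genes on the array. Cfd (adipsin, the protease that starts the alternative complement pathway) had none in the annotation used and was not analysed here. Where a gene had several, the brightest on average was used. The 9 passed the filter on low values and were among the 13174 genes tested. The control mean of Agt lay below that filter, so Agt passed through the treated groups.

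The samples were interscapular brown fat of 15 adult male wild-type C57BL/6N mice, all on a high-fat diet, collected on day 5. In the first group of 5 (mice 41 to 45) each animal received bFKB1, an antibody that activates the complex of FGFR1 with its co-receptor KLB, once, by an intraperitoneal dose of 10 mg/kg (named aFGFR1/KLB here). In the second group of 5 (mice 36 to 40) human FGF21, the hormone that uses the same receptor complex, was given at 1 mg/kg with 2 doses a day. The last 5 (mice 31 to 35) were controls; the labels do not say what, if anything, they were injected with. Both treatments were compared with these same 5 controls, and the agents differ in dose, schedule and, as far as the labels say, in the number of injections.

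Fat is an endocrine organ, and its secreted proteins report on lipid stores, insulin action and heat production. Leptin informs the brain about stored fat and adiponectin sensitises liver and muscle to insulin, while brown fat adds factors such as neuregulin 4 that act on the liver and on neighbouring cells. In mice, FGF21 is known for raising adiponectin in the blood. Transcript levels in a tissue do not measure secretion.

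Of the 9 genes measured, 1 changed with each treatment. Rbp4, the retinol carrier of blood, rose with the antibody, by 0.63 ± 0.10 on the log2 scale (fold change ± SE, n = 5 each). Cxcl14, a chemokine that brown fat releases, rose with FGF21, by 0.99 ± 0.27 (n = 5 each). These are 1 of 9 genes in either comparison with control, where 5.18% (antibody) and 6.32% (FGF21) of all 13174 tested genes passed, in both directions together. Between the treatments 0 of 9 genes passed in limma, against 0.372% of all genes, and 1 of 9 (Rbp4) had an unadjusted p under 0.05, against 13.5%. Lep had the largest mean difference from control of the 9 with either treatment and did not pass, and Adipoq differed from control by at most 0.05.

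The median log2 fold change of the 9 genes was 0.07 with the antibody and 0.25 with FGF21, beside −0.02 and −0.02 over all genes tested. Their median absolute log2 fold change was 0.45 and 0.36, beside 0.11 and 0.11 over all genes. Within groups the SD was 0.95 for Lep, 0.73 for Retn, 0.55 for Metrnl, 0.47 for Cxcl14 and 0.31 for Nrg4. It was 0.25 for Nampt, 0.18 for Agt, 0.17 for Rbp4 and 0.06 for Adipoq, beside a median of 0.16 over all genes. The part of this spread in the absolute differences was not tested. At an unadjusted p under 0.05, 5 of 9 genes differed from control with the antibody, against 19.4% of all genes, and 5 of 9 with FGF21, against 20.4%. Both counts include Agt, which passed the filter on low values through the treated groups. Values of treated and control mice did not overlap for 3 of 9 genes with the antibody (Rbp4 and Nampt above, Lep below), against 8.61% of all genes, and for 1 of 9 with FGF21 (Cxcl14, above), against 5.25%. Between the treatments the values overlapped for each of the 9 genes, while 4.69% of all genes did not overlap.

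The bases before the RefSeq start site (GRCm38.p6) are shown for 3 of the genes: Rbp4, whose rise passed the test with the antibody, Lep, with the largest shift, and Adipoq, the steadiest. Each window holds 250 bases and is read 5′ to 3′ along the gene's strand. Rbp4 has 2 listed start sites, and the outer one was used. The Cxcl14 window lies inside the annotated span of its gene and is not shown. Capitals mark matches on either strand to 8 motifs that were chosen after the sequences were seen.
Rbp4, chr19:38125322-38125571, minus strand: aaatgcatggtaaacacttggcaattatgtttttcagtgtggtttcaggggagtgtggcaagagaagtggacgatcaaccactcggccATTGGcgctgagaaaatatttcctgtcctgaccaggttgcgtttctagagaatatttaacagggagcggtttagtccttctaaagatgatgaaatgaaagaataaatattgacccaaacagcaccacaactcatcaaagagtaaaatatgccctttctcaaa
Lep, chr6:29059971-29060220, plus strand: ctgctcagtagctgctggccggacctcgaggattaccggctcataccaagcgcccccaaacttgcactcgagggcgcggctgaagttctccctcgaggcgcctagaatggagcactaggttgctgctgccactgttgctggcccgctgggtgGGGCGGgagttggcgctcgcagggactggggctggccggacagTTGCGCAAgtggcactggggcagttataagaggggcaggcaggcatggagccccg
Adipoq, chr16:23146286-23146535, plus strand: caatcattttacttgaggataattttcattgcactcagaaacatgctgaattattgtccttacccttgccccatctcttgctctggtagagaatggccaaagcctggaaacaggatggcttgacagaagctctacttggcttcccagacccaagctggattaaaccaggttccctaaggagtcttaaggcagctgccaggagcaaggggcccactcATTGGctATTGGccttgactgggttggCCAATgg

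In the Lep window the capitals are the C/EBP palindrome TTGCGCAA, at 55 to 48 bases before the start site, and the GC box GGGCGG. The palindrome occurred in 54 of 32841 RefSeq promoter windows (0.164%) and the GC box in 32.7%. In the Rbp4 and Adipoq windows the capitals are the CCAAT box or its reverse, with 1 and 3 matches. That motif occurred in 33.9% of windows. The other motifs searched were TATAAA (12.4% of windows), TGACTCA (4.46%), TGACGTCA (1.55%), the PPAR direct repeat (0.0335%) and CCGGAAGT (2.88%). These 5 had 0 matches in the 3 windows shown. The window of the other Rbp4 start site, which lies inside the annotated span of the gene and is not shown, held TATAAA at 28 to 23 bases before that site, TGACTCA on the other strand and 2 GC boxes. A match is a match of letters alone, and no motif overlaps another in these windows.

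**Figure D1:**
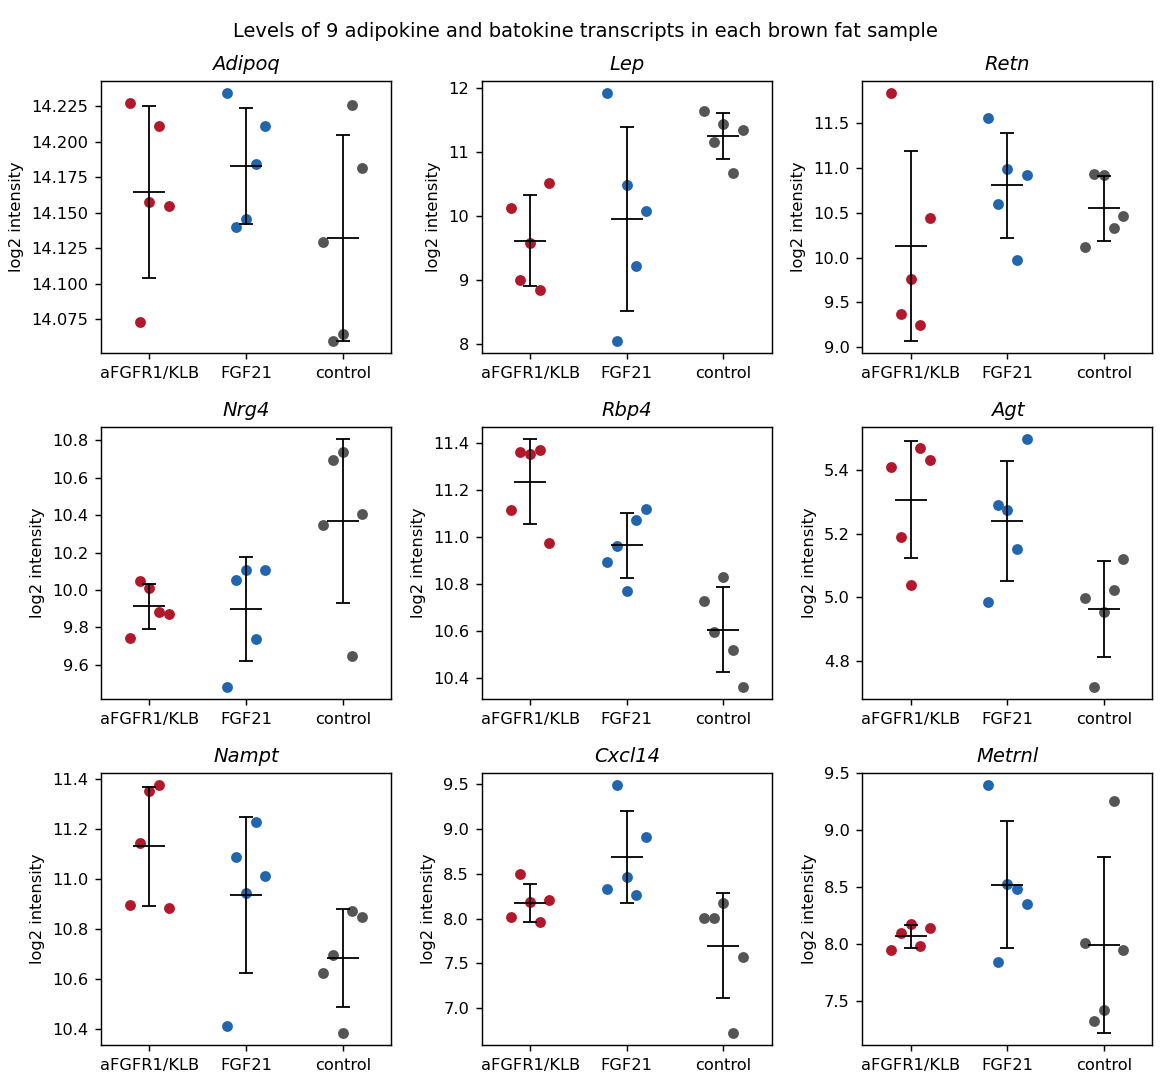
Levels of the 9 measured genes in each sample, on the log2 intensity scale of RMA values with a separate vertical axis per gene. Points are mice, and the bars give the group mean ± SD (n = 5). Rbp4 values of the 5 antibody-treated mice lie above those of the 5 controls, and the Adipoq axis spans less than 0.2.

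Of the 3 classical hormones of fat, Adipoq was the steadiest. It read 14.07 to 14.23 in antibody-treated mice, 14.14 to 14.23 in FGF21-treated mice and 14.06 to 14.23 in controls (log2 intensity, n = 5 each). The ranges of all 3 groups overlapped. The difference from control was 0.03 with the antibody (95% interval −0.08 to 0.14, adjusted p = 0.796) and 0.05 with FGF21 (−0.06 to 0.16, adjusted p = 0.642). Within groups its SD was 0.06, and 99.1% of the tested genes were more variable. Its group means of intensity were 18376 with the antibody, 18604 with FGF21 and 17973 in controls, on arrays whose highest value was 34652.3. Whether the signal was compressed at such levels was not tested.

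Lep, the satiety hormone, was the most variable of the 9. The antibody-treated mice 41 to 45 read 10.13, 9.002, 9.59, 8.86 and 10.52, the FGF21-treated mice 36 to 40 read 11.92, 8.06, 10.49, 9.23 and 10.09, and the control mice 31 to 35 read 11.64, 11.17, 11.44, 10.68 and 11.35 (log2 intensity). Every antibody-treated mouse was below every control. With FGF21, 4 of 5 mice were below every control and FGF21 36 was above them all. The means were 9.62 ± 0.71 with the antibody, 9.95 ± 1.44 with FGF21 and 11.25 ± 0.36 in controls (SD, n = 5 each).

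In limma the difference of Lep from control was −1.64 ± 0.55 with the antibody (adjusted p = 0.103) and −1.30 ± 0.55 with FGF21 (adjusted p = 0.192), so neither passed. The treatments differed from each other by −0.34, with a 95% interval of −1.51 to 0.83. These SEs rest on a spread shared by the 3 groups. Fitted on only the 10 samples compared, the antibody difference passed (SE 0.31, limma adjusted p = 0.0173). The FGF21 difference did not (SE 0.58, adjusted p = 0.302). With a weight estimated for each array both passed, at −1.91 (adjusted p = 0.00256) and −1.53 (adjusted p = 0.00941). Only 1.49% of tested genes had a larger spread within groups. Leaving out FGF21 36 put both comparisons with control past the threshold, and leaving out FGF21 37 did so for the antibody but moved the FGF21 difference to −0.82 (adjusted p = 0.345). Neither mouse is in the antibody or control group. Leaving them out changed only the shared spread in that comparison, and the antibody difference stayed at −1.64. Without FGF21 36 and control 34 together the differences were −1.78 (adjusted p = 0.0196) and −1.93 (adjusted p = 0.0136).

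Markers of white adipocytes, the cells in which Lep is most abundant, also varied between mice. The summed intensity of the 9 tested genes of a list of 12 was 8949 to 15038 with the antibody, 11605 to 21165 with FGF21 and 13138 to 16572 in controls. The highest sum was that of FGF21 36, which had the highest Lep value, and the lowest that of aFGFR1/KLB 44, which had the lowest Lep value of its group. Among the controls the order was not the same: control 34 had the highest sum (16572) and the lowest Lep value (10.68). Of the 9 genes 0 passed the test in any comparison, while 1 had an unadjusted p under 0.05 in each. In a piece of tissue, fewer cells of a type and less RNA per cell cannot be told apart. The part of these cells in the Lep values was not tested.

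Retn encodes resistin, which in mice is made by adipocytes and opposes insulin. It read 11.83, 9.37, 9.76, 9.24 and 10.45 in antibody-treated mice 41 to 45, 11.56, 10.59, 10.99, 9.97 and 10.92 in FGF21-treated mice 36 to 40 and 10.12, 10.94, 10.92, 10.33 and 10.46 in controls 31 to 35 (log2 intensity). In the antibody group 3 of 5 mice were below every control and 1, aFGFR1/KLB 41, was above every control. The groups overlapped in each comparison. The difference from control was −0.42 ± 0.42 with the antibody (adjusted p = 0.649) and 0.25 ± 0.42 with FGF21 (adjusted p = 0.799). Leaving out 1 mouse moved both: the antibody difference was −0.85, −0.23 or −0.20 when mouse 41, 42 or 44 was left out, and the FGF21 difference was 0.0655 without FGF21 36, 0.14 without control 31 and 0.46 without FGF21 39. The interval of the difference between treatments was −1.57 to 0.22.

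**Figure D2:**
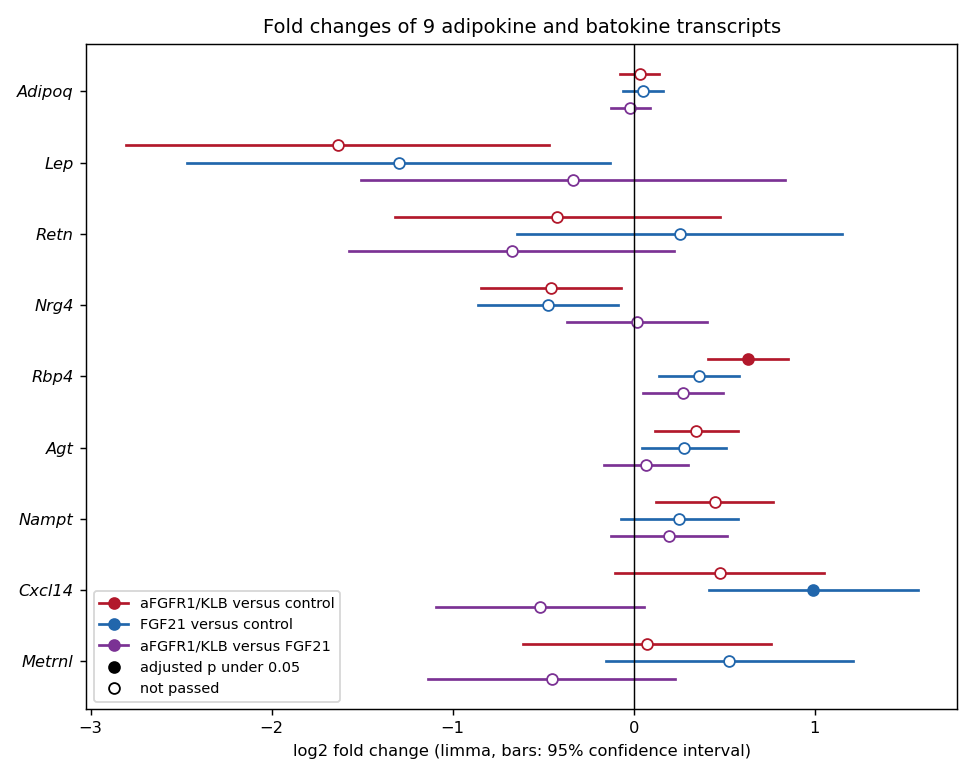
Log2 fold changes of the 9 measured genes (horizontal axis) from limma, with 95% confidence intervals as bars. For each gene the antibody against control stands above FGF21 against control and the antibody against FGF21. Filled points passed an adjusted p of 0.05, which are Rbp4 with the antibody (0.63) and Cxcl14 with FGF21 (0.99).

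Among the factors that brown fat is known to release, Cxcl14 passed the test with FGF21. This chemokine has been described in mice as a signal from active brown fat to macrophages. The antibody-treated mice 41 to 45 read 8.02, 8.49, 8.18, 7.96 and 8.21, the FGF21-treated mice 36 to 40 read 8.33, 9.49, 8.46, 8.26 and 8.91, and the controls 31 to 35 read 8.01, 8.01, 8.17, 6.73 and 7.57 (log2 intensity). Every FGF21-treated mouse was above every control, with FGF21 37 highest and control 34 lowest, while antibody-treated mice overlapped both groups. With FGF21 the transcript was 1.99 times the control level (log2 fold change 0.99 ± 0.27, limma adjusted p = 0.0415). With the antibody the difference from control was 0.47 ± 0.27 (adjusted p = 0.370), and without control 34 it was 0.23 (adjusted p = 0.594).

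The antibody and FGF21 groups differed in Cxcl14 by −0.52 ± 0.27 (95% interval −1.09 to 0.06, adjusted p = 0.410), so a difference between the treatments was not shown. The FGF21 call held in 4 of 15 fits that each left out 1 mouse (without FGF21 36, FGF21 39, control 33 or control 34), and the adjusted p reached 0.0943 in the other 11 (without aFGFR1/KLB 41 to 45, FGF21 37, 38 or 40, or control 31, 32 or 35). A second Cxcl14 probe set gave 0.72 with FGF21 and 0.12 with the antibody. With limma's adjustment over all probe sets, the FGF21 difference had an adjusted p of 0.0897 on that probe set and 0.0444 on the one used. Over 10 other settings the call held in 5, with adjusted p between 0.00134 and 0.178. Without FGF21 36 and control 34 together the difference was 0.84 (adjusted p = 0.0218).

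Nrg4 encodes neuregulin 4, a ligand of the receptor ErbB4 that brown fat sends to the liver. Its values were 9.74, 10.05, 10.01, 9.88 and 9.87 in antibody-treated mice 41 to 45, 9.48, 10.05, 10.11, 9.73 and 10.10 in FGF21-treated mice 36 to 40 and 10.35, 10.70, 10.74, 9.65 and 10.41 in controls 31 to 35 (log2 intensity). In 4 of 5 controls Nrg4 was above every treated mouse, and in control 34 it was lower than in any antibody-treated mouse. The difference from control was −0.46 ± 0.18 with the antibody (adjusted p = 0.172) and −0.47 ± 0.18 with FGF21 (adjusted p = 0.149), neither past the threshold.

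Leaving out control 34 alone changed both: the difference was −0.64 (adjusted p = 0.0100) with the antibody and −0.65 (adjusted p = 0.00506) with FGF21. Without control 34 and FGF21 36 it was −0.64 (adjusted p = 0.00219) and −0.55 (adjusted p = 0.00485). A second Nrg4 probe set gave −0.31 and −0.29 over all 15 samples (adjusted p = 0.412 and 0.450). Between the treatments the interval on the probe set used was −0.37 to 0.40.

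Metrnl encodes meteorin-like, a factor that fat and muscle release and that macrophages also make. It read 7.94, 8.09, 8.17, 7.98 and 8.14 in antibody-treated mice 41 to 45, 9.39, 7.84, 8.53, 8.48 and 8.35 in FGF21-treated mice 36 to 40 and 8.01, 7.32, 7.42, 9.25 and 7.94 in controls 31 to 35 (log2 intensity). The range within the antibody group was 0.23, against 1.55 with FGF21 and 1.93 in controls, where FGF21 36 and control 34 stood highest. The difference from control was 0.53 ± 0.32 with FGF21 (adjusted p = 0.396) and 0.07 ± 0.32 with the antibody (adjusted p = 0.934). The FGF21 difference rested on single mice. It was 0.31 (adjusted p = 0.650) without FGF21 36 and 0.36 (adjusted p = 0.666) without control 32, and 0.84 without control 34, where it passed (adjusted p = 0.0280). The antibody difference ranged over −0.0935 to 0.39 when 1 mouse was left out. Without FGF21 36 and control 34 the FGF21 difference was 0.63 (adjusted p = 0.0242). A second Metrnl probe set gave 0.42 with FGF21 and −0.07 with the antibody over all 15 samples (limma adjusted p = 0.434 and 0.935, over all probe sets). Another lay below the filter and was not tested.

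The same 2 samples stood apart in markers of other cell types. The summed intensity of 19 macrophage markers (of 20 listed) was 13295 to 24291 with the antibody (median 17195), 9894 to 73682 with FGF21 (median 24543) and 8416 to 62446 in controls (median 16891), with FGF21 36 and control 34 highest in their groups. They were also highest in 15 fibroblast and progenitor markers and lowest in 14 adipocyte markers. Metrnl was high and Nrg4 low in both. Adipoq, itself an adipocyte gene, was the highest of its group in both (14.23 in control 34 and 14.23 in FGF21 36). Of the 19 macrophage markers 0 passed in any comparison, and 0 had an unadjusted p under 0.05. The part of macrophages in the Metrnl and Nrg4 values was not tested.

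**Figure D3:**
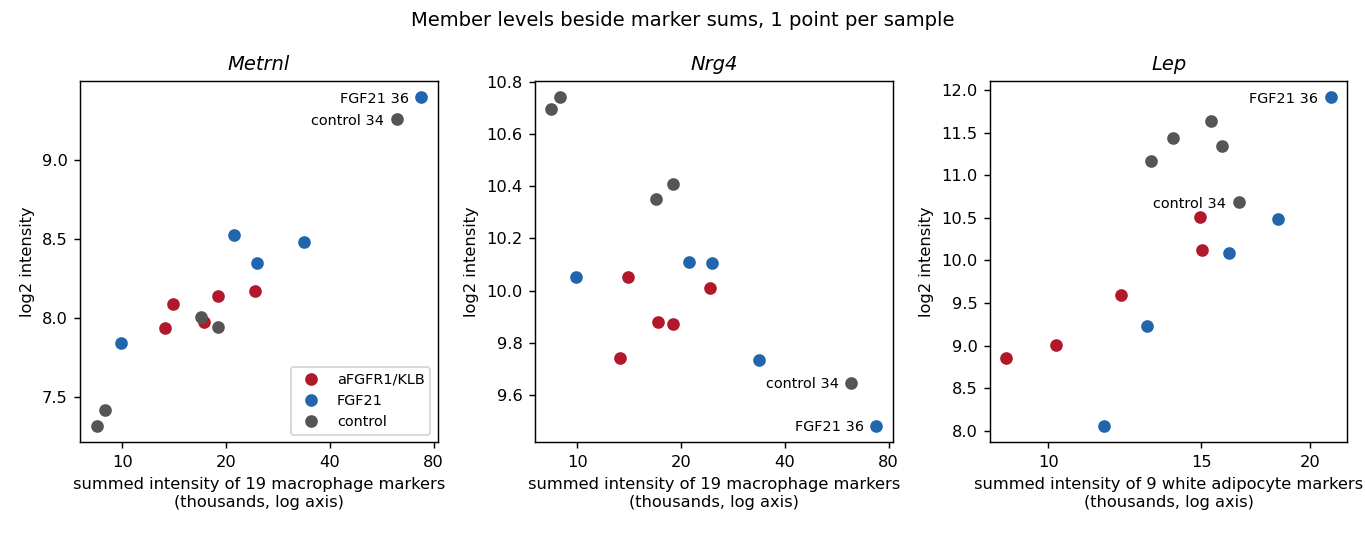
Log2 intensity of Metrnl, Nrg4 and Lep in each sample (vertical axes) against the summed intensity of marker genes (horizontal log axes). Points are mice. FGF21 36 and control 34 have the highest macrophage sums, 73682 and 62446, with high Metrnl and low Nrg4.

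Rbp4, made in liver and in adipocytes and known for carrying retinol in blood, had the lowest adjusted p of the 9. The antibody-treated mice 41 to 45 read 11.11, 11.36, 11.35, 11.37 and 10.98, the FGF21-treated mice 36 to 40 read 10.90, 10.96, 10.77, 11.07 and 11.12, and the controls 31 to 35 read 10.73, 10.59, 10.83, 10.52 and 10.36 (log2 intensity). Every antibody-treated mouse was above every control, and with FGF21 4 of 5 mice were. The means were 11.24 ± 0.18 with the antibody, 10.96 ± 0.14 with FGF21 and 10.61 ± 0.18 in controls (SD, n = 5 each).

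With the antibody Rbp4 was 1.55 times the control level (log2 fold change 0.63 ± 0.10, limma adjusted p = 0.00397). This call held in 15 of 15 fits that each left out 1 mouse, with adjusted p between 0.00239 and 0.0156, and in 10 of 10 other settings. With FGF21 the difference was 0.36 ± 0.10 (adjusted p = 0.0543), which did not pass; it passed without aFGFR1/KLB 45, FGF21 38 or control 33. The antibody stood 0.27 ± 0.10 above FGF21 (95% interval 0.05 to 0.49, adjusted p = 0.281), so a difference between the agents was not shown after adjustment.

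Nampt, the enzyme that limits NAD synthesis from nicotinamide and is also found outside cells as visfatin, read 10.90, 11.15, 11.35, 11.38 and 10.88 in antibody-treated mice 41 to 45, 10.41, 11.09, 10.94, 11.23 and 11.01 in FGF21-treated mice 36 to 40 and 10.62, 10.70, 10.39, 10.87 and 10.85 in controls 31 to 35 (log2 intensity). Every antibody-treated mouse was above every control, the lowest by a narrow margin. The difference from control was 0.45 ± 0.15 with the antibody (adjusted p = 0.107) and 0.25 ± 0.15 with FGF21 (adjusted p = 0.389). The antibody difference passed when FGF21 36 was left out, a mouse that enters this comparison only through the spread shared by the 3 groups. Without FGF21 36 and control 34 both passed, at 0.49 (adjusted p = 0.0184) and 0.43 (adjusted p = 0.0362). The other 2 Nampt probe sets gave 0.29 and 0.35 with the antibody and 0.08 and 0.05 with FGF21.

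Agt encodes angiotensinogen, the precursor of the angiotensin peptides. Its probe set read close to the filter of 5.06: 5.04 to 5.47 in antibody-treated mice, 4.99 to 5.50 in FGF21-treated mice and 4.72 to 5.12 in controls (log2 intensity, n = 5 each). The ranges overlapped. The difference from control was 0.35 ± 0.11 (adjusted p = 0.0805) with the antibody and 0.28 ± 0.11 (adjusted p = 0.154) with FGF21, and without FGF21 36 and control 34 these were 0.36 (adjusted p = 0.0422) and 0.36 (adjusted p = 0.0457).

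With those 2 samples left out, 5 of 9 genes passed with the antibody (Rbp4, Nampt and Agt higher, Lep and Nrg4 lower) and 6 of 9 with FGF21 (Cxcl14, Metrnl, Nampt and Agt higher, Lep and Nrg4 lower). The share of all tested genes that passed was then 12.4% and 16.2%. Both counts of members include Agt, which read close to the filter and passed it through the treated groups. Between the treatments 0 of 9 passed in limma, against 1.83% of all genes. The samples were left out because they stood apart in macrophage, fibroblast and adipocyte marker levels, a choice made with earlier results of these arrays known. Another sample, aFGFR1/KLB 45, had the highest skeletal muscle sum (150345, against 137458 in FGF21 36) and was kept.

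**Figure D4:**
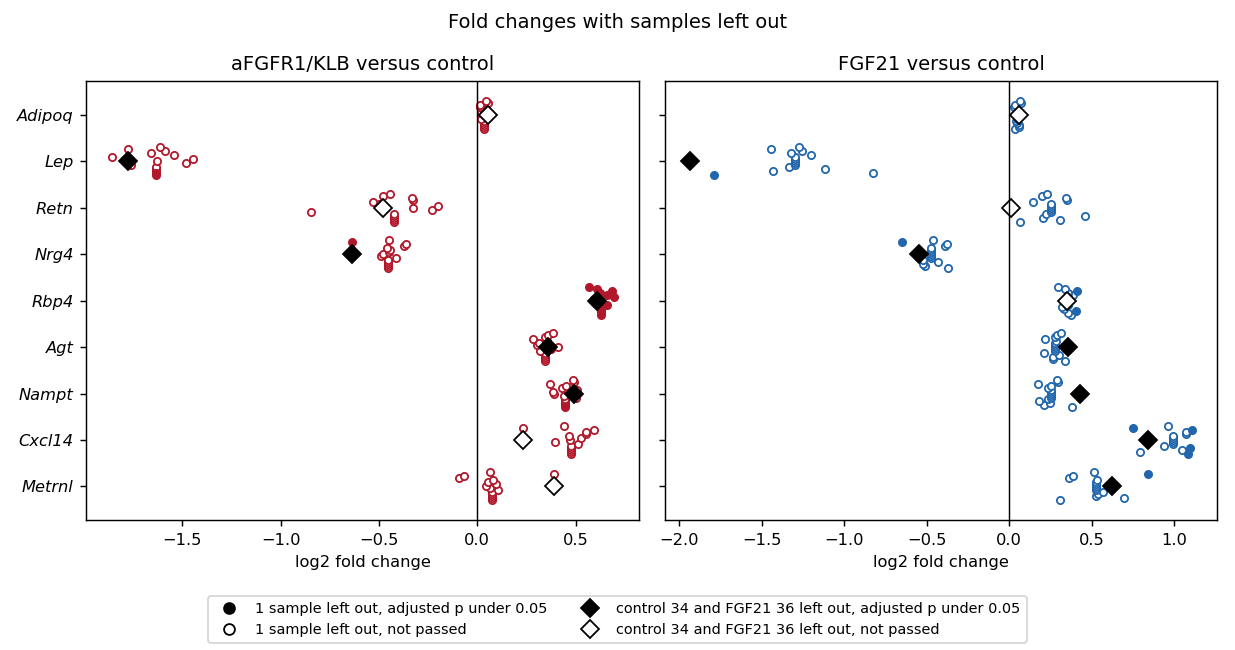
Log2 fold changes of the 9 measured genes against control (horizontal axis) in the 15 fits that each left out 1 sample (circles, spread vertically for sight) and without control 34 and FGF21 36 together (diamonds). Filled symbols passed an adjusted p of 0.05. Without both samples 5 of 9 genes did so with the antibody and 6 of 9 with FGF21, each count including Agt.

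Genes whose values deviated most like those of a member, after group means were removed, were named from correlations over the 15 samples, given as a description. Such points share a tissue piece and an array. A second value was taken over the 13 samples left without control 34 and FGF21 36. For Metrnl the closest gene was Msr1 (0.99, and 0.94 over the 13). Msr1 is a scavenger receptor of macrophages. For Nrg4 it was Mrpl48 (0.98, and 0.93 over the 13), for Lep Mc2r (0.95, and 0.91 over the 13) and Sucnr1 (0.94, and 0.89 over the 13), for Rbp4 Cfdp1 (0.90, and 0.90 over the 13), and for Cxcl14 Fez2 (0.91, and 0.81 over the 13). Mc2r is the receptor for adrenocorticotropin and Sucnr1 that for succinate.

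The proteins that bind or carry these hormones were read from a list of 17 genes, of which 12 were tested. In each comparison with control 1 of 12 passed, against 5.18% (antibody) and 6.32% (FGF21) of all tested genes. It was Kit, a receptor tyrosine kinase that Metrnl has been reported to bind and a marker of mast cells. It passed the filter of 5.06 mainly through the controls, since the mean was 5.17 ± 0.31 with the antibody, 5.04 ± 0.24 with FGF21, which is below the filter, and 6.31 ± 0.22 in controls (SD, n = 5 each). Kit read 4.71, 5.56, 5.26, 5.25 and 5.06 in antibody-treated mice 41 to 45, 5.27, 4.76, 5.03, 5.29 and 4.84 in FGF21-treated mice 36 to 40 and 6.06, 6.45, 6.22, 6.61 and 6.20 in controls 31 to 35 (log2 intensity). Every treated mouse was below every control. Kit fell by 1.14 on the log2 scale with the antibody (adjusted p = 0.00117) and by 1.27 with FGF21 (adjusted p = 0.000360). With treated values this close to the low end of the scale, the size of the fall is uncertain. Without FGF21 36 and control 34, 2 of the 12 receptors and carriers fell in each comparison with control, against 12.4% and 16.2% of all tested genes. Of 7 tested mast cell and neutrophil markers 0 passed in either comparison over all 15 samples, and 0 and 1 had an unadjusted p under 0.05.

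Beside Rbp4, the handling of retinol was read from 15 tested genes of 23 listed. With the antibody 1 rose and 1 fell, and with FGF21 1 rose and 0 fell. Over all tested genes 5.18% and 6.32% passed, in both directions together. Without FGF21 36 and control 34, 2 rose and 2 fell with the antibody, and 3 rose and 4 fell with FGF21. The shares of all tested genes were then 12.4% and 16.2%. Rbp7, a retinoid carrier inside cells, read 10.58, 10.46, 10.70, 10.28 and 10.19 in antibody-treated mice 41 to 45, 9.77, 10.64, 10.71, 10.47 and 10.35 in FGF21-treated mice 36 to 40 and 9.36, 9.46, 9.65, 9.48 and 9.27 in controls 31 to 35 (log2 intensity). No treated mouse overlapped the controls, and the rises were 1.00 ± 0.15 (adjusted p = 0.00258) with the antibody and 0.94 ± 0.15 (adjusted p = 0.00263) with FGF21. Dhrs3, which reduces retinaldehyde to retinol, fell with the antibody (−0.55 ± 0.12, adjusted p = 0.0150); with FGF21 its difference was −0.22 (adjusted p = 0.326). The FGF21 difference passed when FGF21 36 was left out, and without FGF21 36 and control 34 it was −0.34 (adjusted p = 0.0181).

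The lists around Adipoq, Agt and Cfd gave no call over all 15 samples. Without FGF21 36 and control 34, 1 of 7 renin-angiotensin enzymes fell and 1 of 8 complement genes rose with FGF21, against 16.2% of all tested genes. With all samples, of 8 tested genes of adiponectin assembly and secretion, 7 renin-angiotensin enzymes and 8 genes of the alternative complement pathway, 0 passed limma's adjusted threshold in any comparison. At an unadjusted p under 0.05 there were 0, 1 and 0 with FGF21 and 0, 0 and 0 with the antibody. Around Nampt, 1 of 18 genes of NAD synthesis and use passed with the antibody, against 5.18% of all tested genes. It was Nadk2, the mitochondrial NAD kinase (0.38 ± 0.10, adjusted p = 0.0444). That call held in 4 of 15 fits, without FGF21 36, 37 or 38 or control 32. Of these mice only control 32 is in the comparison. With FGF21 0 of 18 passed, against 6.32% of all tested genes, and 1 had an unadjusted p under 0.05. Without FGF21 36 and control 34, 1 NAD gene rose and 1 fell with the antibody, and 0 rose and 1 fell with FGF21.

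Of 14 adipocyte transcription factors, which govern fat cell genes such as Adipoq and Lep, 1 rose and 1 fell with the antibody, and 1 rose and 4 fell with FGF21. The shares of all tested genes that passed were 5.18% and 6.32%, in both directions together. Without FGF21 36 and control 34, 3 rose and 1 fell with the antibody, and 3 rose and 4 fell with FGF21, against 12.4% and 16.2%. Klf15, a factor of amino acid and glucose metabolism, rose by 1.17 ± 0.16 with the antibody (adjusted p = 0.00117) and by 1.17 ± 0.16 with FGF21 (adjusted p = 0.000868). Cebpa, which binds the Lep promoter in mice, fell by 0.43 with the antibody (adjusted p = 0.0241) and by 0.46 with FGF21 (adjusted p = 0.0138). The antibody call of Cebpa held in 8 of 15 fits and was lost without aFGFR1/KLB 41, 42, 43 or 45 or control 32, 33 or 35.

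With FGF21, Zfp423, a factor that restrains the brown fat programme, fell by 0.60 (adjusted p = 0.00144) and Srebf1, a regulator of lipid synthesis, fell by 0.56 (adjusted p = 0.00892). With the antibody their differences were −0.14 (adjusted p = 0.423) and −0.31 (adjusted p = 0.137); that of Srebf1 passed without aFGFR1/KLB 44. Zfp423 was 0.46 ± 0.09 higher with the antibody than with FGF21 (adjusted p = 0.0438), a call that held in 3 of 15 fits, without FGF21 36, control 33 or control 34.

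Among 31 tested adipokines outside the 10 genes, 0 rose and 3 fell with the antibody, and 1 rose and 1 fell with FGF21. Beside these counts, 5.18% and 6.32% of all tested genes passed, in both directions together. Without FGF21 36 and control 34, 1 rose and 3 fell with each treatment, against 12.4% and 16.2%. Angptl8, a partner of other angiopoietin-like proteins in the control of lipoprotein lipase, read 8.72, 9.12, 9.03, 8.97 and 8.93 in antibody-treated mice 41 to 45, 8.50, 8.76, 8.92, 8.51 and 8.99 in FGF21-treated mice 36 to 40 and 10.30, 9.83, 9.96, 8.88 and 9.97 in controls 31 to 35 (log2 intensity). It fell by 1.05 with FGF21 (adjusted p = 0.00717, 15 of 15 fits) and by 0.83 with the antibody (adjusted p = 0.0289), although each treated group overlapped the controls. The antibody call of Angptl8 held in 6 of 15 fits, without any 1 of the FGF21 mice or without control 34. The FGF21 mice are not in that comparison. Of the antibody-treated and control mice, only control 34 could be left out without losing the call.

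Angptl4, an inhibitor of lipoprotein lipase, fell with the antibody (−0.72 ± 0.16, adjusted p = 0.0186); the call was lost without aFGFR1/KLB 44, control 32 or control 33. C1qtnf2, a relative of adiponectin, fell by 0.38 with the antibody (adjusted p = 0.0299), which was lost without aFGFR1/KLB 42 to 45 or control 31, 32 or 35. Lpl, lipoprotein lipase itself, rose with FGF21 by 0.19 ± 0.05 (adjusted p = 0.0489), a call that held in 1 of 15 fits, without control 34. With the antibody its difference was 0.17 ± 0.05 (adjusted p = 0.0818). Every antibody-treated mouse was above every control only by a very narrow margin (lowest 14.6395, highest control 14.6386, log2 intensity). The lowest FGF21-treated mouse read 14.6323, just below that control. Without FGF21 36 and control 34 both passed, at 0.20 (adjusted p = 0.0160) with the antibody and 0.23 (adjusted p = 0.00929) with FGF21. With FGF21 the differences of Angptl4 and C1qtnf2 were −0.38 and −0.25 (adjusted p = 0.182 and 0.141). Both passed when FGF21 36 was left out, and without FGF21 36 and control 34 they were −0.53 and −0.26 (adjusted p = 0.0267 and 0.0392). Neither gene passed between the treatments (adjusted p = 0.380 and 0.533).

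The list of other batokines also held genes of proteins that are not themselves secreted, such as the enzyme Ephx2. Among its 31 tested genes, 3 rose and 1 fell with the antibody, and 1 rose and 1 fell with FGF21. All tested genes passed at 5.18% and 6.32%, in both directions together. Without FGF21 36 and control 34, 3 rose and 3 fell with the antibody, and 3 rose and 5 fell with FGF21, against 12.4% and 16.2%. Bmp8b, a growth factor of active brown fat, read 7.53, 7.68, 7.70, 7.45 and 7.17 in antibody-treated mice 41 to 45, 7.20, 8.38, 8.54, 7.84 and 8.22 in FGF21-treated mice 36 to 40 and 6.97, 6.51, 6.72, 6.51 and 6.82 in controls 31 to 35 (log2 intensity). Every treated mouse was above every control. Bmp8b rose by 1.33 ± 0.21 with FGF21 (adjusted p = 0.00189) and by 0.80 ± 0.21 with the antibody (adjusted p = 0.0360). The antibody call held in 8 of 15 fits and was lost without aFGFR1/KLB 41 to 44 or control 32, 33 or 35. Of the mice in that comparison, only aFGFR1/KLB 45, control 31 or control 34 could be left out without losing it. Between the treatments it differed by −0.53 ± 0.21 (adjusted p = 0.285), and by −0.74 (adjusted p = 0.0239) without FGF21 36 and control 34, which passed.

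Angpt1, an angiopoietin that stabilises vessels, fell by 0.93 with FGF21 (adjusted p = 0.00195) and by 0.64 with the antibody (adjusted p = 0.0204), the antibody call being lost without aFGFR1/KLB 41, 42 or 43 or control 32 or 33. Ephx2, the soluble epoxide hydrolase that makes lipid signals of brown fat, rose with the antibody by 0.56 ± 0.12 (adjusted p = 0.0143); with FGF21 its difference was 0.19 (adjusted p = 0.417). Between the treatments 1 of 31 passed, against 0.372% of all tested genes. It was Wnt5a, a secreted ligand, 0.50 ± 0.10 higher with the antibody than with FGF21 (adjusted p = 0.0438). That call held without FGF21 39, control 33 or control 34 and in none of the other 12 fits.

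**Figure D5:**
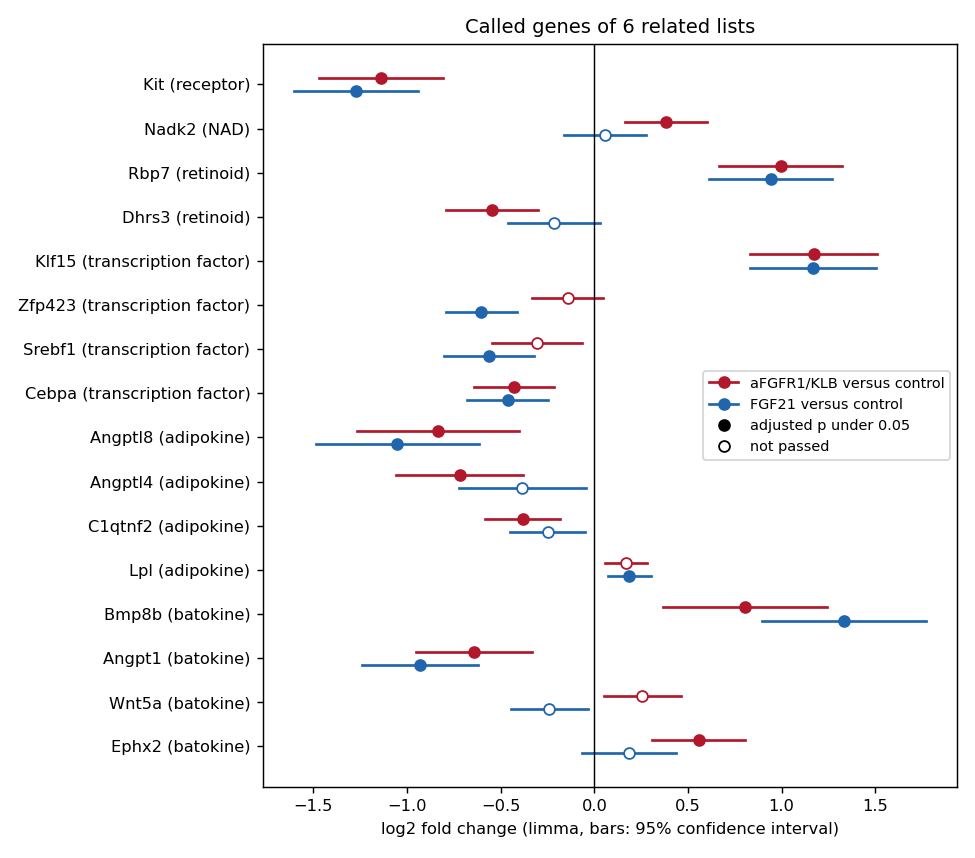
Log2 fold changes (horizontal axis, bars are 95% confidence intervals from limma) of the genes named from the lists around the 9 measured genes. Filled points passed an adjusted p of 0.05. Kit lies at −1.14 and −1.27 and Klf15 at 1.17 and 1.17, for the antibody and FGF21 against control.

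The median log2 fold change of all tested genes was −0.02 with the antibody and −0.02 with FGF21. With the antibody and with FGF21, the receptors and carriers had medians of −0.05 and −0.08, retinoid handling −0.06 and −0.10, and the transcription factors 0.07 and −0.03. The other adipokines had −0.13 and 0.02 and the other batokines 0.02 and 0.01. Adiponectin assembly had −0.12 and −0.01, the renin-angiotensin enzymes −0.12 and 0.10, the complement genes −0.03 and 0.01, and the NAD genes 0.02 and −0.03. Beside them the macrophage markers had −0.09 and 0.56 and the white adipocyte markers −0.30 and −0.03. The fibroblast and progenitor markers had −0.47 and 0.10 and the skeletal muscle markers −1.55 and −1.47.

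The summed levels of vessel and lymphocyte markers also differed in range between the groups. The summed intensity of 15 endothelial markers was 7314 to 8208 with the antibody, 7029 to 9623 with FGF21 and 6481 to 7278 in controls, so every antibody-treated mouse was above every control and FGF21-treated mice overlapped them. Their median log2 fold change was 0.15 with the antibody and 0.21 with FGF21. Of the 15, 1 rose with the antibody (Sox17, 0.63, adjusted p = 0.00550) and 2 with FGF21 (Sox17, 0.42, adjusted p = 0.0321, and Eng, 0.40, adjusted p = 0.00829), and without control 34 and FGF21 36 3 and 4 rose. Of all tested genes 5.18% and 6.32% passed, and 12.4% and 16.2% without those 2 samples. Sox17 and Eng are named after their values were seen. The summed intensity of 7 B and T lymphocyte markers was 1035 to 2171 with the antibody, 1010 to 1824 with FGF21 and 1824 to 2924 in controls, and 0 of 7 passed in either comparison, while 2 and 1 had an unadjusted p under 0.05. The part of these cells in the values of Rbp4, Rbp7, Kit, Angpt1 and the other genes was not tested.

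The tissue matched its label: Ucp1, the heat-producing protein of brown fat, read 14.52 to 14.82 over the 15 samples (log2 intensity). Of 14 tested brown adipocyte markers 6 rose and 1 fell with the antibody while 3 rose and 1 fell with FGF21. Over all tested genes 5.18% and 6.32% passed, in both directions together. The summed intensity of the 14 was 112338 to 124733 with the antibody, 94721 to 121852 with FGF21 and 94881 to 110423 in controls. Every antibody-treated mouse was above every control, and FGF21-treated mice overlapped them. The part of these cells in the other values was not tested. Skeletal muscle markers (15 genes, summed intensity) ranged from 2474 to 150345 with the antibody, 2453 to 137458 with FGF21 and 14466 to 43986 in controls, highest in aFGFR1/KLB 45 and FGF21 36, and 0 of 15 passed. Median array intensities lay between 50.6 and 52.1, and arrays correlated at 0.925 to 0.996.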

How the data were processed

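Total RNA of each of 15 mice was read on its own array. RMA, which corrects background, equalises the arrays' distributions and summarises probes, was applied by the authors, per the submitters' processing notes (version not given in the sources used here), and 1 linear intensity per probe set and array was deposited. These were log2 transformed and used as they stood. Of 45101 probe sets 34958 carried 1 gene symbol, 932 several, and 9211 were not listed. Each gene took its probe set with the highest mean, and genes whose mean exceeded 5.06, a cut at percentile 40 over probe sets, were tested with limma 3.58.1 in R 4.3.3: 3 groups, 15 samples, two-sided, Benjamini-Hochberg over 13174 genes, threshold 0.05. All adjusted p are limma's. There is no read depth on arrays, so precision depends on the 15 arrays.

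The genes, the lists and the tests were chosen with earlier results of these data known. Genes named were the 10, up to 4 called genes of each list by smallest p, and for each member described the genes with the closest group-centred profiles. Alternatives were 15 fits without 1 sample and 10 other settings. Each of the 15 fits kept the 3 groups and their shared spread. For each comparison 5 of these fits left out a mouse of the third group. That changes the shared spread and the adjusted p, but not the difference, so these 5 are a weak check of a call. Promoter windows and motif shares came from RefSeq (GRCm38.p6), where the 10 genes matched.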

Additional observations from a re-analysis of the deposited data

How the results depend on the processing

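No paired analysis was possible because the replicate numbers 31 to 45 do not repeat between groups. The Rbp4 call with the antibody held in 15 of 15 fits without 1 sample and in 10 of 10 other settings. In the comparison of the antibody with control, the antibody with FGF21 and FGF21 with control, 682, 49 and 833 genes and 1, 0 and 1 members were called as reported. Genes called ranged over 336 to 1140, 10 to 251 and 463 to 2097 in the fits that left out 1 sample, and members called over 1 to 3, 0 to 0 and 0 to 3. Without control 34 alone 1140, 251 and 2097 genes passed. Centring on ribosomal protein genes gave 156, 8 and 196 genes, array weights gave 2307, 832 and 2855, and leaving out control 34 and FGF21 36 together gave 1631, 241 and 2138. Using only the 10 samples compared gave 87 genes between the treatments and 322 for FGF21 against control, and eBayes with trend and robust gave 81 between the treatments. Members called with the antibody numbered 2 with only those 10 samples (Lep and Rbp4), 4 with array weights (Lep, Nampt, Nrg4 and Rbp4) and 5 without both samples. With FGF21 they numbered 6 with array weights and 6 without both, and 0 with no filter, the mean of all probe sets, ribosomal centring, repeated quantile normalisation or only 10 samples. Ribosomal centring moved the share of calls that were higher to 78.8% with the antibody (51.9% as reported) and to 67.3% with FGF21 (41.8% as reported). Between the treatments that share was 34.7% as reported and 56.5% with array weights. Signs turned only among differences that did not pass: between the treatments Nrg4 had −0.0047 with the mean of probe sets, −0.10 with array weights and −0.0884 without both samples, Agt −0.11 with array weights, Adipoq 0.0499 with ribosomal centring and Lep 0.15 without both. In the fits without 1 sample Metrnl ranged over −0.0935 to 0.39 with the antibody against control, and between the treatments Adipoq over −0.0339 to 0.0046, Lep over −0.81 to 0.15 and Nrg4 over −0.0884 to 0.0684. The fits with fewer samples rest on fewer arrays; for the other settings the cause was not tested.

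The Dixon test for a sample far from its group was applied to 27 groups of 5 and marked 0. With 5 mice a group, the median standard error of a log2 fold change was 0.10.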

Other observations

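Members also varied together within groups, and the 8 of 36 pairs with the strongest correlations are given. After group means were removed, the correlation of Nrg4 with Metrnl was −0.88 over 15 samples and −0.48 over 13 samples, the second value without control 34 and FGF21 36. For Cxcl14 with Metrnl it was −0.82 over 15 samples and −0.63 over 13, for Nrg4 with Cxcl14 0.80 over 15 samples and 0.55 over 13, for Lep with Nampt −0.77 over 15 samples and −0.56 over 13, for Retn with Nampt −0.71 over 15 samples and −0.71 over 13, for Adipoq with Nrg4 −0.77 over 15 samples and −0.67 over 13, for Adipoq with Cxcl14 −0.73 over 15 samples and −0.56 over 13, and for Adipoq with Metrnl 0.65 over 15 samples and 0.37 over 13. These describe single tissue pieces, each read on 1 array.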
